A study of Mus musculus with 6 samples.

Results

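The 10 genes described here encode costimulatory and inhibitory receptors of T cells: Cd28, Icos, Ctla4, Pdcd1, Btla, Vsir, Cd226, Cd96, Cd5 and Cd6. They were selected by gene symbol from the 22322 genes of the deposited table, all 10 were found there, and all 10 were among the 11488 genes that passed the filter on low counts. RNA-seq was performed on CD4+CD8+ double-positive (DP) thymocytes sorted by flow cytometry. The control group was 3 libraries from Paxbp1 fl/fl littermates without Cre, and the Paxbp1 cKO group was 3 libraries from Paxbp1 fl/fl Lck-cre mice, in which Cre removes exon 8 of Paxbp1. The sample titles call these groups WT-DP and Lck-KO-DP, and they are named control and cKO here. All mice were on the C57BL/6 background, were 4 to 7 weeks old, were of both sexes and received no treatment. The Lck-cre transgene is driven by the proximal Lck promoter, which is active from the double-negative (DN) stage onwards, so that deletion begins before the DP stage. The labels do not say whether each library came from a separate mouse, so the p-values below measure the spread between these libraries.

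T cells read antigen through the T cell receptor (TCR), and co-signalling receptors on the same membrane raise or lower the strength of that signal. CD28 and ICOS are costimulators that recruit PI3 kinase, whereas CTLA-4 competes with CD28 for the ligands CD80 and CD86, and PD-1 (Pdcd1), BTLA and VISTA (Vsir) are inhibitory. CD226 and CD96 compete for the ligand CD155 (Pvr), with CD226 acting as an activating receptor. CD5 and CD6 are related scavenger-receptor proteins, and surface CD5 on thymocytes is widely used as a gauge of how strongly the TCR has signalled.

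The libraries held 18963775 to 26252248 counts, so that a single count was worth 0.0388 to 0.0520 CPM (counts scaled to library size, with TMM factors of 0.982 to 1.013). The targeted gene, Paxbp1, was at 40.1, 16.3 and 15.5 CPM in control libraries 1, 2 and 3 and at 38.8, 47.1 and 49.6 CPM in the libraries labelled cKO 1, 2 and 3. Its log2 fold change was 0.92 ± 0.33 (SE, adjusted p = 0.0977, edgeR). These counts are over the whole gene and were not resolved by exon, so they do not check the deletion of exon 8. The paper reports, by qPCR and by western blot of sorted thymocytes, that Paxbp1 was efficiently deleted in cKO mice. Here the groups are called by their labels. All 12 DP markers were detected and tested, none was called higher in the libraries labelled cKO (0 also at an unadjusted p under 0.05 and by DESeq2), and Cd8b1, Rag1 and Cd3e were lower. Their summed level was 12991 to 15217 CPM in control and 9752 to 11602 CPM in the libraries labelled cKO. In bulk RNA, fewer cells of a type and less RNA per cell cannot be told apart.

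The genes were chosen with earlier results of this contrast known, so the fold changes and p-values of the 10 receptors describe where they lie in the fit across all genes and are no independent evidence of a change. In that fit (edgeR quasi-likelihood test, Benjamini-Hochberg adjustment over 11488 genes), 10.4% of all tested genes passed an adjusted p of 0.05, with 4.47% higher and 5.89% lower in the libraries labelled cKO. An absolute log2 fold change above 1 was also met by 2.76% of tested genes. The 3 control and 3 cKO values did not overlap for 33.0% of tested genes. Of the 10 receptors, Ctla4 was called higher, Cd96, Vsir and Cd226 were called lower, and the other 6 did not pass. All 4 called genes were also past the fold threshold. For 5 receptors, these 4 and Pdcd1, the groups did not overlap. The median log2 fold change was -0.55 over the 10 receptors and -0.0017 over all tested genes.

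**Figure D1:**
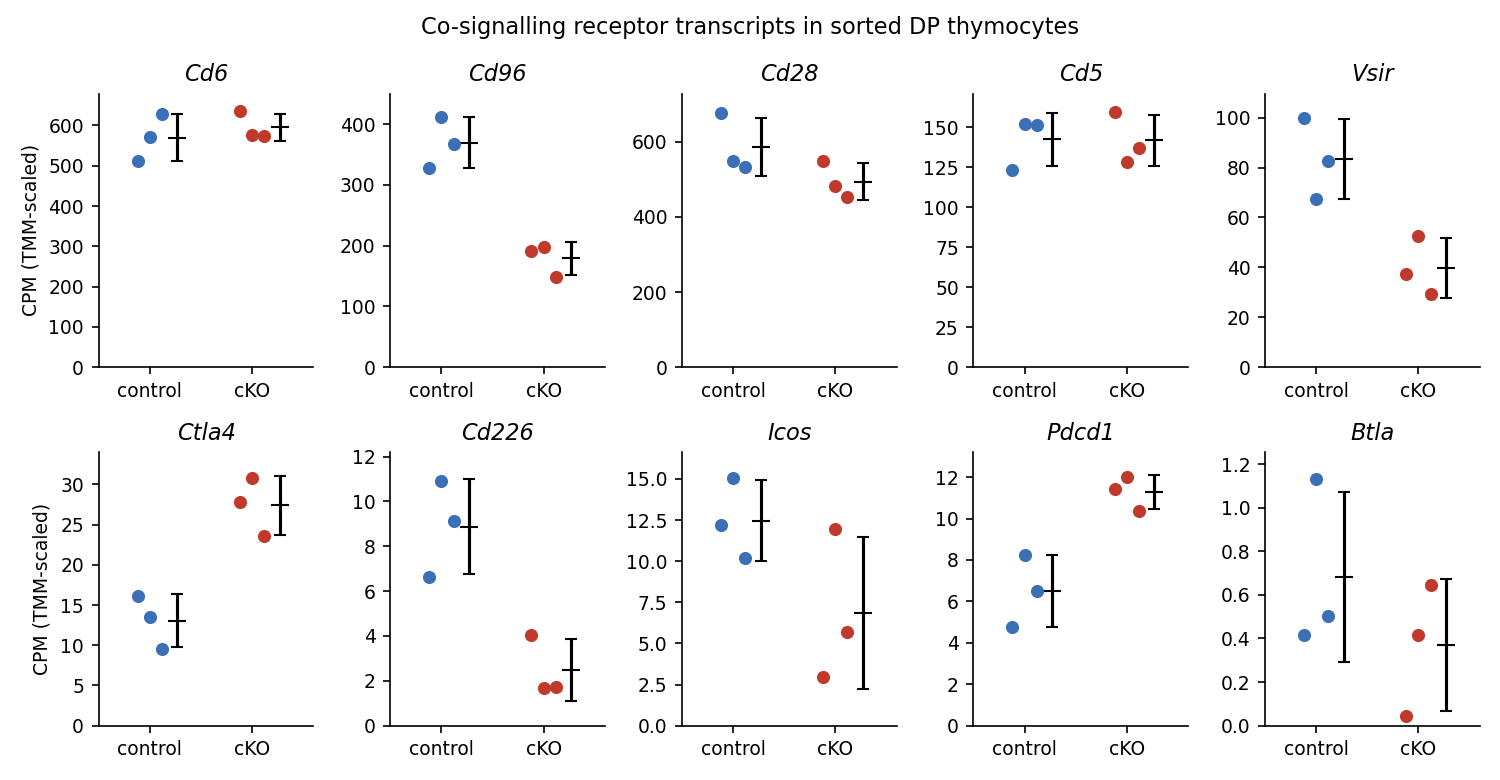
TMM-scaled CPM of each receptor transcript (y axis, linear from 0, own scale per panel) in the 3 control (blue) and 3 cKO (red) libraries, with replicates 1 to 3 from left to right. Black bars give the mean ± SD. Ctla4 and Pdcd1 lie higher in every cKO library, Cd96, Vsir and Cd226 lie lower in every cKO library, and the groups overlap for the other 5 genes.

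The promoters of 4 receptors are shown because their transcripts lay apart between the groups, Ctla4 and Pdcd1 upwards and Cd96 and Vsir downwards. Each line holds the 150 bases before the RefSeq start site on the strand of the gene (build GRCm38.p6), 5′ to 3′, at chr1:60908875-60909024 (plus) for Ctla4, chr1:94052554-94052703 (minus) for Pdcd1, chr16:46120249-46120398 (minus) for Cd96 and chr10:60346701-60346850 (plus) for Vsir. The Ctla4 window lies inside the span that GENCODE gives this gene, whose annotated start is further upstream. Capitals mark matches on either strand to core letters bound by factors of T cell development: the E-box CAGCTG or CAGGTG (E proteins), TGTGGT (RUNX), GGAAA (NFAT) and CTTTGA (TCF1 and LEF1).
Ctla4: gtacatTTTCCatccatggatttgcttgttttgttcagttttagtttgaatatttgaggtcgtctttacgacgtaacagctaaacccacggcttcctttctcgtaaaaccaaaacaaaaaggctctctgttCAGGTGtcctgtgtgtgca
Pdcd1: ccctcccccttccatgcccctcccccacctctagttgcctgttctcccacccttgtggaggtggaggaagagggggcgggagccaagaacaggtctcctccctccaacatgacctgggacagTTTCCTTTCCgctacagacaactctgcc
Cd96: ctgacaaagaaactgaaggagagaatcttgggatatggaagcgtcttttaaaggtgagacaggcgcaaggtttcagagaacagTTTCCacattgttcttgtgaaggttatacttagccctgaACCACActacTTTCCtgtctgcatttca
Vsir: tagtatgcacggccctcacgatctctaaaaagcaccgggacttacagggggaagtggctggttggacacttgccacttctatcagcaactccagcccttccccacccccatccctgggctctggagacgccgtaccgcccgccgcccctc
In Ctla4 the capitals are an NFAT core 144 bases and an E-box 19 bases before the start. In Pdcd1 they are a pair of adjoining NFAT cores at 28 and 23 bases. In Cd96 they are NFAT cores at 67 and 18 bases with a RUNX core at 28 bases between them, and Vsir held no match. No match overlapped another. Among the 6 receptors with a RefSeq promoter entry, which also include Btla and Cd5, 3 held the NFAT core, 2 the E-box, 1 the RUNX core and 0 the TCF1/LEF1 core. These letters are common, since of 27025 mouse promoters 37.8% held the NFAT core, 17.7% the E-box, 8.53% the RUNX core and 8.0% the TCF1/LEF1 core in the same window. A match is a description of the sequence, not a bound site.

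The costimulators of the CD28 family were considered first. Cd28 was an abundant transcript, at 676, 549 and 534 CPM in control libraries 1, 2 and 3 and at 549, 482 and 452 CPM in the libraries labelled cKO 1, 2 and 3. The highest cKO library reached the middle control library, so the groups overlapped. The means were 586 ± 78.1 and 494 ± 49.7 CPM (SD, n = 3 each), a log2 fold change of -0.25 ± 0.13 (SE) with an adjusted p of 0.247 (edgeR). Icos, the inducible costimulator, was at 12.2, 15.1 and 10.2 CPM in control and at 2.97, 12 and 5.68 CPM in the libraries labelled cKO. The cKO libraries were uneven, with a coefficient of variation of 67.2% against 19.7% in control, and cKO library 2 lay within the control range. The log2 fold change of Icos was -0.86 ± 0.43 (SE) with an adjusted p of 0.223 (edgeR). Without cKO library 2 it was -1.53 with an adjusted p of 0.0421, the only setting of 13 in which Icos passed.

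Among the inhibitory receptors of this family, Ctla4 was higher in the libraries labelled cKO. It was at 16.1, 13.5 and 9.59 CPM in control (310, 263 and 247 counts) and at 27.8, 30.8 and 23.6 CPM in the libraries labelled cKO (counts of 609, 592 and 511). The lowest cKO library stood above the highest control library. The fold difference was 2.10, with a log2 fold change of 1.07 ± 0.22 (SE) and an adjusted p of 0.0174 (edgeR). The direction held in every setting, with log2 fold changes of 0.89 to 1.25, but the call was lost without control library 2 (adjusted p = 0.0553) and without cKO library 1, 2 or 3 (0.0622, 0.0558 and 0.0602, edgeR).

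Pdcd1, which encodes PD-1, had the same pattern at a lower level. It was at 4.77, 8.22 and 6.48 CPM in control and at 11.4, 12 and 10.4 CPM in the libraries labelled cKO. Every cKO library was above every control library. The log2 fold change was 0.80 ± 0.27 (SE) with an adjusted p of 0.0843 (edgeR), and it passed the threshold in 0 of 13 alternative settings, in which the adjusted p ran from 0.0513 to 0.18.

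Vsir, which encodes the inhibitory receptor VISTA, was lower in the libraries labelled cKO. It was at 99.9, 67.6 and 82.7 CPM in control and at 37.4, 52.6 and 29.2 CPM in the libraries labelled cKO. The highest cKO library was below the lowest control library. The level was 2.10-fold lower, with a log2 fold change of -1.07 ± 0.22 (SE) and an adjusted p of 0.0164 (edgeR). The call was lost without cKO library 1 (adjusted p = 0.0731) or cKO library 3 (0.0781, edgeR).

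Btla, the receptor for the ligand HVEM, was close to the limit of detection. Its counts were 8, 22 and 13 in control and 1, 8 and 14 in the libraries labelled cKO. The exact 95% Poisson interval of the lowest of these, 0.0253 to 5.57 counts, and of the highest, 13.8 to 33.3 counts, cover counting error only. The groups overlapped, the log2 fold change was -0.88 ± 0.94 (SE, adjusted p = 0.596, edgeR), and a difference was not detectable at this depth.

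The pair of receptors that share CD155 were both lower in the libraries labelled cKO. Cd96 was at 328, 412 and 368 CPM in control and at 191, 198 and 148 CPM in the libraries labelled cKO. All 3 cKO libraries were well below the lowest control library, and the spread within groups was small, with coefficients of variation of 11.3% and 15%. The means of 369 ± 41.7 and 179 ± 26.9 CPM (SD, n = 3 each) differed 2.06-fold, with a log2 fold change of -1.05 ± 0.14 (SE) and an adjusted p of 0.00418 (edgeR), rank 54 of all tested genes by p. Cd96 was the only receptor called in all 13 alternative settings, with an adjusted p of at most 0.0380.

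Cd226, the activating partner, was much rarer. It was at 6.64, 10.9 and 9.12 CPM in control (128, 212 and 235 counts) and at 4.06, 1.67 and 1.71 CPM in the libraries labelled cKO (counts of 89, 32 and 37). The groups did not overlap, and cKO library 1 lay nearest to control. The log2 fold change of -1.84 ± 0.42 (SE, adjusted p = 0.0240, edgeR) was the lowest of the 10. It ran from -2.39 to -1.62 over the alternatives, and the call was lost without control library 2 (adjusted p = 0.0941), control library 3 (0.0595), cKO library 2 (0.0648) or cKO library 3 (0.106, edgeR).

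The scavenger-receptor pair did not pass the test. Cd5 was at 123, 152 and 152 CPM in control and at 160, 128 and 137 CPM in the libraries labelled cKO. Both groups had a mean of 142 CPM, with SDs of 16.4 and 16.1 (n = 3 each). Its log2 fold change was -0.0058 ± 0.13 (SE, adjusted p = 0.985, edgeR) and changed sign with the scaling. For the protein, the paper reports by flow cytometry that CD5 was similar on DP thymocytes of cKO and control mice. Cd6 was at 511, 571 and 628 CPM in control and at 635, 577 and 575 CPM in the libraries labelled cKO. The groups overlapped, with a log2 fold change of 0.063 ± 0.11 (SE, adjusted p = 0.770, edgeR).

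**Figure D2:**
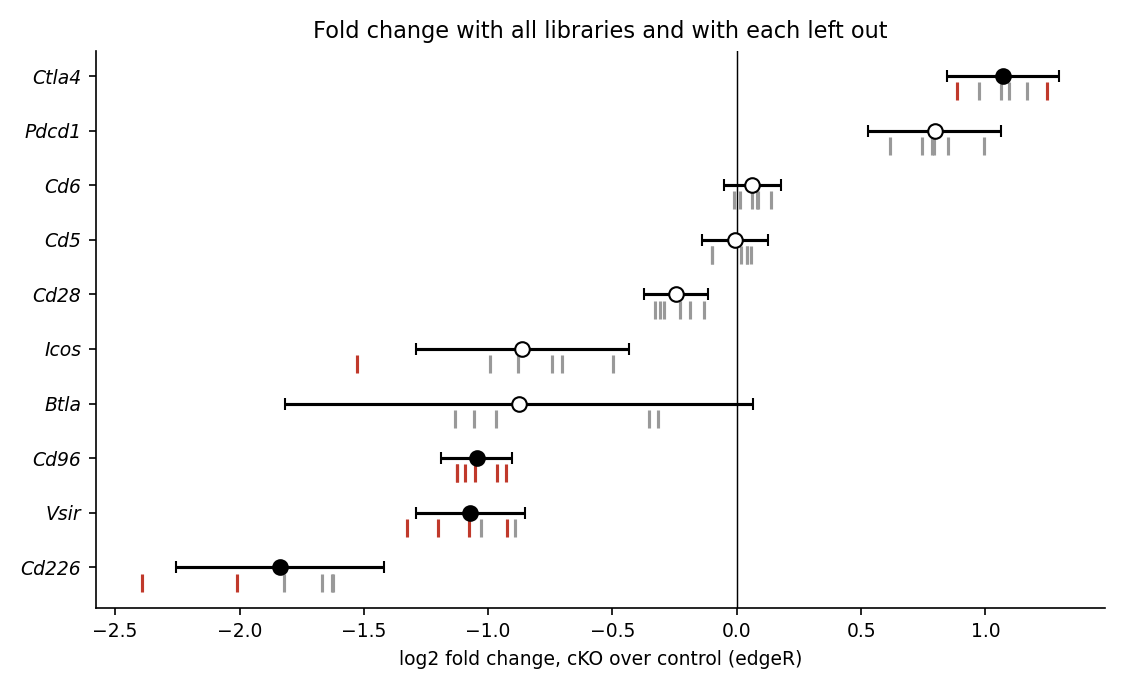
Log2 fold change of cKO over control (x axis, edgeR) for each receptor, with bars of ± 1 SE. Filled circles passed an adjusted p of 0.05 and open circles did not, and ticks below each circle give the fold change with each library left out in turn, red where the gene passed. The 6 ticks of Cd96 are all red, whereas Ctla4 and Cd226 have 2 red ticks each and Vsir has 4. Btla has 5 ticks, since it was not tested without cKO library 3.

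Levels of the receptors were compared with each other on the FPKM scale, which is per transcript length. For Cd6, Vsir, Cd226, Icos and Btla that length differed between libraries by 1.15-fold to 2.17-fold. In control, Cd6 was highest at 207 ± 17.8 FPKM, followed by Cd96 at 168 ± 17.3, Cd28 at 134 ± 20.02 and Cd5 at 71.5 ± 6.72 FPKM (SD, n = 3). Vsir was next at 25.4 ± 3.70 FPKM. Ctla4 at 6.77 ± 1.70, Cd226 at 5.59 ± 1.61, Icos at 5.32 ± 1.17 and Pdcd1 at 3.33 ± 0.856 FPKM formed a low group, and Btla was at 0.207 ± 0.116 FPKM. The neighbours Cd96 and Cd28, Ctla4 and Cd226, and Cd226 and Icos did not differ beyond their libraries' ranges.

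In the libraries labelled cKO the order was Cd6 at 243 ± 6.10, Cd28 at 115 ± 11.9, Cd96 at 82.5 ± 12.9, Cd5 at 72.6 ± 8.84, Ctla4 at 14.9 ± 2.18, Vsir at 11.2 ± 3.57, Pdcd1 at 5.87 ± 0.475, Icos at 2.73 ± 1.63, Cd226 at 1.80 ± 0.143 and Btla at 0.18 ± 0.13 FPKM. Icos FPKM did not overlap between the groups (4.59 to 6.67 in control and 0.98 to 4.22 in the libraries labelled cKO), although its CPM did. Cd96 stood below Cd28 and overlapped Cd5, and Ctla4, which was below Vsir in every control library, overlapped it here. Cd6, Cd96, Cd28 and Cd5 together made up 92.6% ± 0.542 of the summed FPKM of the 10 genes in control and 93.3% ± 1.24 in the libraries labelled cKO. That sum was 627 ± 13.6 FPKM in control and 549 ± 34.5 FPKM in the libraries labelled cKO. The order of the top genes depends on the length used. With CPM per kilobase of all annotated exons, the order in both groups was Cd96, Cd28 and Cd6. The values were 169, 95.8 and 71.5 in control, but lay close together at 81.9, 80.8 and 74.7 in the libraries labelled cKO.

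**Figure D3:**
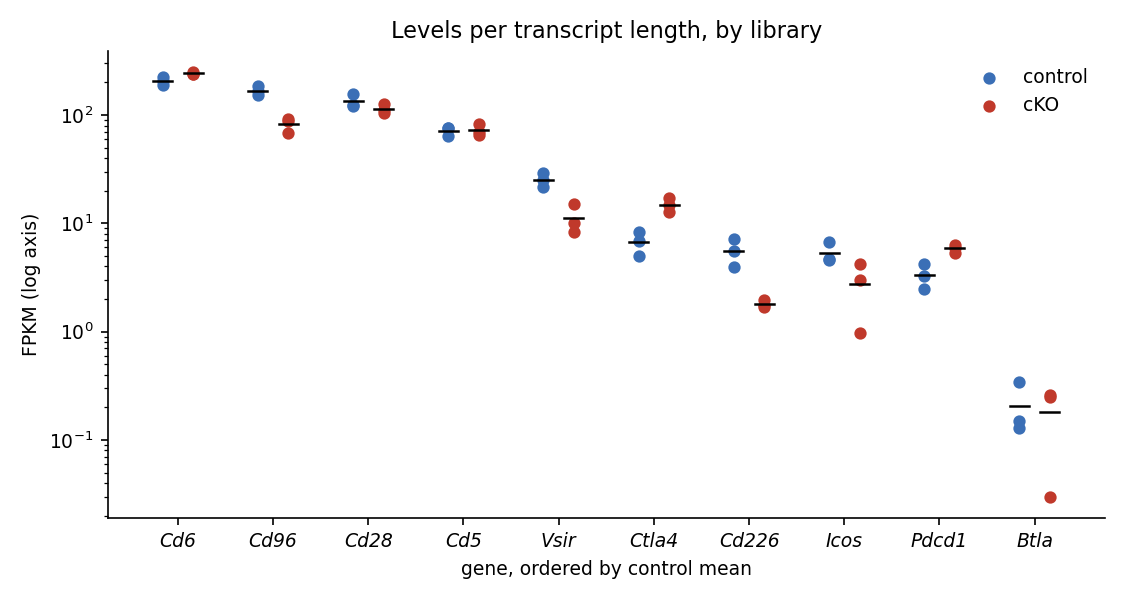
FPKM of the 10 receptors (y axis, log scale) in the control (blue) and cKO (red) libraries, with genes ordered by their control mean (black lines). The 4 genes on the left lie at 63.8 FPKM or above in every library and Btla at 0.34 FPKM or below in every library.

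Positions are given on GRCm38 with the GENCODE M21 annotation. Several of the receptor genes are neighbours. Cd28 (chr1:60716800-60773359), Ctla4 (chr1:60887000-60915832) and Icos (chr1:60977927-61000320) follow each other on the plus strand of chromosome 1, with gaps of 113.64 kb and 62.094 kb and 0 other protein-coding genes between them. Cd5 (chr19:10717116-10739002) and Cd6 (chr19:10789341-10830058) are adjacent on the minus strand of chromosome 19, 50.338 kb apart. Btla (chr16:45224315-45257670) and Cd96 (chr16:46035657-46120251) are on one chromosome but have 11 protein-coding genes between them. Pdcd1 (chr1:94038305-94052553, minus strand), Vsir (chr10:60346851-60372684) and Cd226 (chr18:89176967-89272229) stand alone. Vsir lies inside Cdh23 on the opposite strand with 0 shared exonic bases, and Cdh23 was at a mean of 0.701 CPM in control and 0.309 CPM in the libraries labelled cKO.

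Ratios within a library do not depend on the scaling between libraries. The ratio of Cd28 to Ctla4, the costimulator and its competitor, was 18.7, 18.1 and 24.1 in control and 8.69, 6.54 and 8.09 in the libraries labelled cKO on the FPKM scale. The means were 20.3 ± 3.30 and 7.77 ± 1.11 (SD, n = 3 each), and the groups did not overlap. They did not overlap as a ratio of counts either, at 42.1, 40.6 and 55.7 against 19.8, 15.6 and 19.2. This ratio restates the levels of Cd28 and Ctla4 given above and is no further evidence of a change. The ratio of Cd96 to Cd226 was 38.3, 25.9 and 29.5 in control and 44.9, 54.6 and 38.2 in the libraries labelled cKO, so that cKO library 3 fell just within the control range. As a ratio of counts, which no length enters, it was 49.5, 37.8 and 40.3 in control and 47.0, 119 and 86.7 in the libraries labelled cKO, and it was cKO library 1 that fell within the control range. The transcript length behind the FPKM of Cd226 differed up to 2.17-fold between libraries. The ratio of Cd28 to Icos was 33.4, 18.7 and 26.3 in control and 130, 26.6 and 34.9 in the libraries labelled cKO, with cKO library 1 far from the rest. Its ratio of counts was 55.5, 36.5 and 52.5 in control and 185, 40.3 and 79.7 in the libraries labelled cKO, with cKO library 2 within the control range in each case.

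**Figure D4:**
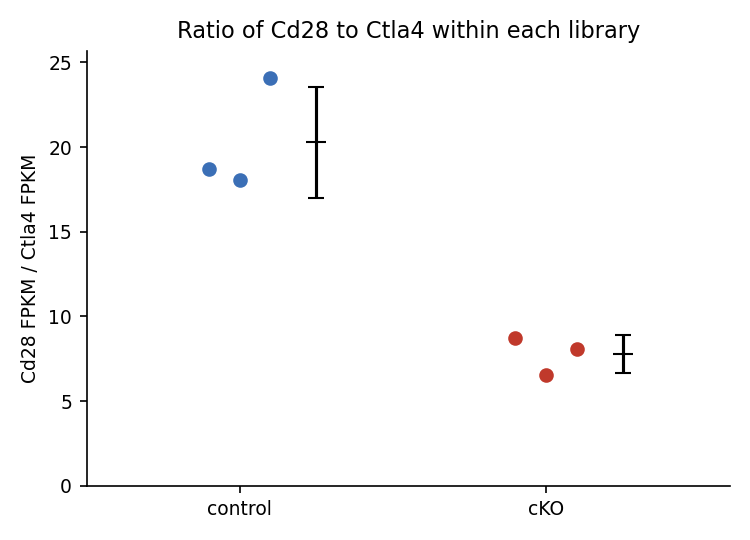
Ratio of Cd28 FPKM to Ctla4 FPKM within each library (y axis, linear from 0) for control (blue) and cKO (red), with the mean ± SD in black. The control libraries lie between 18.1 and 24.1 and the cKO libraries between 6.54 and 8.69.

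Genes around the receptors were then counted in the same fit, from lists that did not enter the choice of the 10. These lists and those of marker genes were also chosen with earlier results of these data known. Their counts are therefore a description and no independent evidence. Of 12 ligand genes, 4 could be tested and 0 passed. In edgeR 1 of these, Cd86, had an unadjusted p under 0.05, and DESeq2 called 1, also Cd86, while limma-voom called 0. Cd274, which encodes the PD-1 ligand PD-L1, was at 35.8 ± 21.0 CPM in control and 38.7 ± 1.93 CPM in the libraries labelled cKO (SD, n = 3, adjusted p = 0.868, edgeR). Pvr, the ligand of CD226 and CD96, was at 50.6 ± 14.8 and 49.0 ± 5.04 CPM (adjusted p = 0.916, edgeR). Cd86, the costimulatory ligand of CD28 and CTLA-4, was named after its values were seen. Its counts were 0, 6 and 1 in control and 123, 15 and 11 in the libraries labelled cKO, with an adjusted p of 0.0596 (edgeR).

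Of 19 other co-signalling receptors, 14 were tested, 0 were called higher by edgeR (1 at an unadjusted p under 0.05, and 0 by DESeq2 or limma-voom) and 2 were lower. Lag3, an inhibitory receptor for MHC class II, fell from 14.9 ± 1.77 to 4.83 ± 1.24 CPM, a log2 fold change of -1.63 ± 0.27 (SE, adjusted p = 0.00825, edgeR). Cd27, a costimulator of the TNF receptor family, fell from 504 ± 62.0 to 331 ± 27.4 CPM, a log2 fold change of -0.60 ± 0.12 (SE, adjusted p = 0.0166, edgeR). Lag3 passed in all 13 alternatives, whereas Cd27 was lost without control library 2, cKO library 1 or cKO library 3 (adjusted p = 0.0737, 0.0597 and 0.0976, edgeR). Havcr2, Pvrig and Crtam had 0 counts in every library.

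The molecules that relay the signals inside the cell were mostly expressed at high levels. All 21 positive relays were tested, 6 were lower and 1 was higher, with a median log2 fold change of -0.35. The number of lower calls depended on single libraries, as 0 were left without control library 2, control library 3, cKO library 1 or cKO library 3, 2 without cKO library 2, and 8 were made without control library 1. The kinase Lck fell from 4552 ± 83.9 to 3409 ± 171 CPM (log2 fold change -0.42, adjusted p = 0.0212, edgeR). Lower levels were also found for Prkcq, the kinase PKC-theta downstream of CD28 (-0.56, adjusted p = 0.0245), the exchange factor Vav1 (-0.41, 0.0342), the phospholipase Plcg1 (-0.49, 0.0383), and the adaptors Grap2 (-0.47, 0.0390) and Lcp2 (-0.43, 0.0395, edgeR). The gene called higher, named after its values were seen, was Pik3cd, a catalytic subunit of PI3 kinase (0.46, adjusted p = 0.0476, edgeR). Pik3cd passed in only 6 of 13 alternatives, and the call was lost with the replicate block (0.0611), with no filter on low counts (0.0627) and without any library except control library 1 (0.104 to 0.175, edgeR).

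All 16 negative relays were tested, 0 were higher by edgeR (also 0 at an unadjusted p under 0.05 and by DESeq2) and 3 were lower, with a median of -0.17. The diacylglycerol kinases Dgka (-0.84, adjusted p = 0.00869) and Dgkz (-0.86, 0.00870), which dampen signalling by removing diacylglycerol, and the adaptor Dok2 (-0.64, 0.0104, edgeR) were lower. Without cKO library 3 all 3 calls were lost, with adjusted p of 0.0510, 0.0545 and 0.0731 (edgeR).

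Genes that respond to TCR signalling moved both ways. Of 12, 11 were tested, 3 were higher and 2 lower, with a median of -0.36. The orphan nuclear receptors Nr4a1 (495 ± 117 to 1523 ± 636 CPM, log2 fold change 1.62, adjusted p = 0.00930) and Nr4a3 (11.8 ± 9.63 to 59.5 ± 18.1 CPM, 2.34, 0.0183, edgeR) rose. The transcript of the activation antigen Cd69 rose as well (1.47, adjusted p = 0.0344, edgeR). The groups overlapped, as its lowest cKO library, at 187 CPM, lay below the highest control library, at 201 CPM. For the protein, the paper reports by flow cytometry that CD69 was unaltered on DP and SP thymocytes of cKO mice. Id3, an inhibitor of E proteins, fell from 329 ± 12.1 to 152 ± 16.7 CPM (-1.11, adjusted p = 0.00349), and the repressor Gfi1 fell from 146 ± 5.49 to 104 ± 12 CPM (-0.49, 0.0342, edgeR). Id3 passed in all 13 alternatives. The others were each lost without cKO library 3, with adjusted p of 0.0547 for Nr4a1, 0.0884 for Nr4a3, 0.122 for Cd69 and 0.151 for Gfi1 (edgeR), and of these Nr4a1 was not lost in any other alternative. Over the 5 lists, 17 genes were called, and without a single library this count ran from 2 (without cKO library 3) to 24 (without control library 1).

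**Figure D5:**
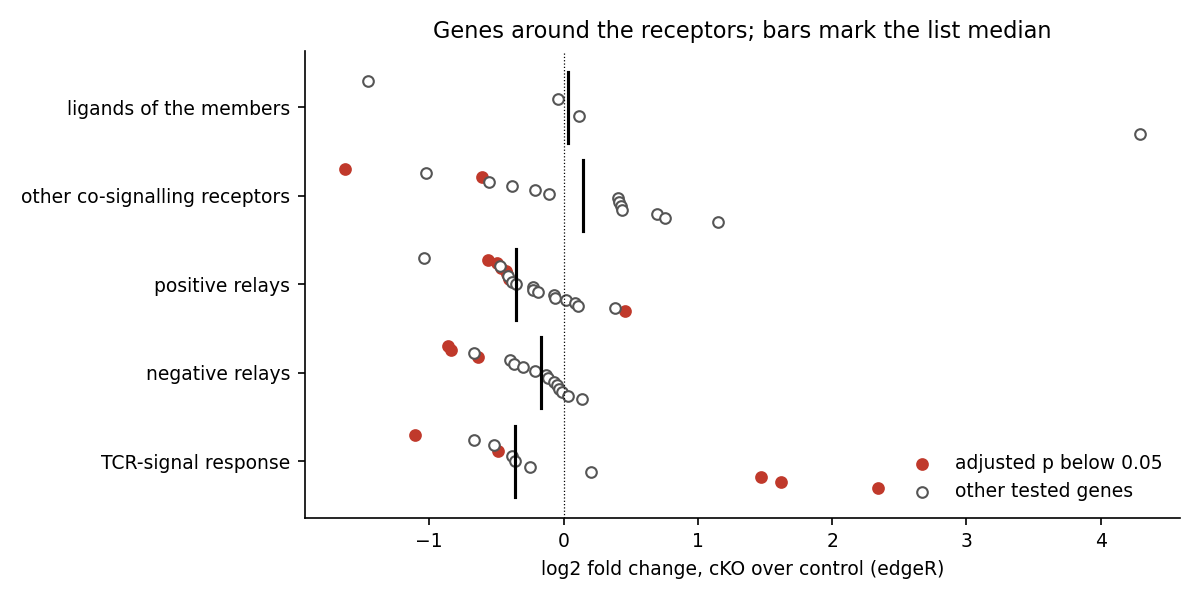
Log2 fold change of cKO over control (x axis, edgeR) for each tested gene of 5 lists (rows), with red for an adjusted p below 0.05 and a black bar at the median of the list. The medians are 0.035 for ligands, 0.15 for other co-signalling receptors, -0.35 for positive relays, -0.17 for negative relays and -0.36 for TCR-signal response genes.

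Several of the 10 receptors are also made by other cells of the thymus, so the marker genes of those cells were read beside them. Ctla4 and Icos are abundant in regulatory T cells. Of 7 regulatory T cell markers, 5 were tested and 2 were higher, Il2ra and Ikzf2, with a sum of 124 to 137 CPM in control and 141 to 154 CPM in the libraries labelled cKO. Of the 5, 3 had a log2 fold change above 0. By edgeR or DESeq2 0 were called lower, but 1 was lower at an unadjusted p under 0.05 in edgeR. The defining gene Foxp3 had 0, 13 and 1 counts in control and 0 counts in every library labelled cKO. Il2ra is shared with the DN and ISP (immature single-positive) list, in which Hes1, Il2ra and Dtx1 were higher among 8 tested genes and the sum was 217 to 284 CPM in control and 311 to 335 CPM in the libraries labelled cKO. Only 4 of the 8 had a log2 fold change above 0, and Hes1 alone went from a mean of 7.83 to 54.1 CPM. In that list 0 were called lower, and 1 was lower at an unadjusted p under 0.05 in DESeq2 and in limma-voom. The part of these cells in the level of Ctla4 was not tested.

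Vsir is strongly expressed by myeloid cells. Of 12 macrophage markers, 8 were tested, 4 were higher (Adgre1, C1qc and C1qb had the smallest p) and 0 lower (0 also at an unadjusted p under 0.05 and by DESeq2), while Mertk and Vsig4 had 0 counts in every library. Their sum was 9.93 to 28.9 CPM in control and 50.5 to 70.04 CPM in the libraries labelled cKO. Of 8 dendritic cell markers, 4 were tested, Cd74 was higher and the other 3 were not called, while Clec9a had 0 counts in every library. The sums were 21.6 to 41.4 CPM in control and 58.6 to 104 CPM in the libraries labelled cKO. Cd74 alone went from a mean of 13.8 to 47.3 CPM. CD226 and CD96 are also carried by natural killer (NK) cells. Of 10 markers of NK and innate T cells, 3 were tested and 0 passed in edgeR (also 0 at an unadjusted p under 0.05 and by DESeq2), Klrb1c had 0 counts in every library, and the sums were 1.87 to 7.19 CPM in control and 3.32 to 9.17 CPM in the libraries labelled cKO. Of 9 markers of mature single-positive (SP) thymocytes, which carry more CD5 than DP cells, 6 were tested and 0 passed in edgeR (1 was lower at an unadjusted p under 0.05, and 0 by DESeq2), with sums of 302 to 477 and 252 to 345 CPM. Among markers of B cells, erythroid cells and neutrophils, and thymic epithelial cells, 0 were higher in edgeR, at an unadjusted p under 0.05 or by DESeq2, and Cd79b and Cldn4 were lower. The part of these cells in the levels of the receptors was not tested.

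Finally, the tested genes whose log2 CPM followed each called receptor most closely over the 6 libraries were listed. They were Taf1a, Ccnd1 and Gpr22 for Ctla4 (Pearson r of 0.996, 0.992 and 0.992) and Tbc1d22a, Ugp2 and Ube3b for Vsir (0.996, 0.996 and 0.993). For Cd226 they were Pdk2, Gpr108 and Yif1a (0.997, 0.994 and 0.993), and for Cd96 they were Abi3, Morc1 and Nim1k (0.999, 0.998 and 0.998). These are the highest of all tested genes over only 6 libraries that share the group difference, and they carry no p.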

How the data were processed

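Total RNA of sorted DP thymocytes was reverse transcribed, the cDNA was pre-amplified and the resulting libraries were run on an Illumina HiSeq2500. For the amplification, the methods of the study and the sample labels give different kits. The submitters' processing notes list fastp 0.18.0, Bowtie2 2.2.8, HISAT2, StringTie and RSEM, without their roles. The genome build, annotation and strand setting were not given in the sources used here. For each library, the authors deposited unnormalized read counts per gene. They also deposited FPKM, made by the authors per transcript length and library size, which were used here only for levels and ratios between genes. Columns of the authors' own means, fold changes, p-values and FDR were not used.

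The analysis used edgeR 4.0.16 in R 4.3.3. Genes were kept by filterByExpr (minimum count 10, minimum total 15), counts were TMM normalized, and genotypes (3 libraries each) were tested by quasi-likelihood with genotype as the only term. SE was computed from the F statistic. A gene was called at an adjusted p below 0.05, and past the fold at an absolute log2 fold change above 1. Chi-square over its degrees of freedom was 19.1 to 64.9 between replicates of a group, so none repeated another up to counting error alone. This check cannot tell whether the replicates came from separate mice. The step was tested on simulated counts of this comparison, in which 143 of 196 changed genes among 11364 were called along with 8 unchanged genes. The simulated log2 changes were of at least 1 in size, with the same spread parameter for every gene. Smaller changes and uneven libraries are therefore not covered.

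The 10 receptors and the lists of pathway and marker genes were chosen with earlier results of these data known. Beyond the 10, genes were named by rule. These are the called genes of each pathway list (at most 6 by smallest p, or the 2 most abundant if fewer than 2 passed), called marker genes (at most 3 per list), and the 3 genes most like each called receptor by Pearson r. Marker genes that the rule admits only for their abundance are covered by the sums. Genes named as having 0 counts, Foxp3, Cd86, Cdh23 and Pik3cd are outside this rule and were chosen after their values were seen. Alternatives were DESeq2 1.42.0, limma-voom (limma 3.58.1), scaling by RLE factors or by total counts, testing every gene with a count or those with a mean of at least 5 CPM, a replicate block, and leaving out each library. Promoters are from RefSeq on GRCm38.p6, with entries for 6 of 10 receptors, and positions are from GENCODE M21. Intervals cover counting error only, as reads of amplified cDNA are not independent molecules.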

Additional observations from a re-analysis of the deposited data

How the results depend on the processing

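The 4 receptors called were Ctla4, Vsir, Cd226 and Cd96 with DESeq2 or limma-voom, scaling by RLE factors or by total counts, testing every gene with a count or genes at a mean of 5 CPM or more, or the replicate block. Leaving out 1 library changed more. The count of receptors called ran from 1 (Cd96, without cKO library 3) to 4, that of receptors also past the fold from 0 to 3 against 4 with all libraries, and that of called pathway genes from 2 to 24 against 17. Over all genes, 1191 were called, 1940 with DESeq2, 1238 with the replicate block, and 120 to 2030 with 1 library left out. Those past the fold numbered 317, and 73 to 454 with 1 library left out. Every fit with 1 library left out has fewer degrees of freedom. Over all genes, calls were most without control library 1 (2030) and fewest without cKO library 3 (120). The cause of these changes was not tested. Same-numbered libraries correlated at 0.045, 0.038 and -0.030 in their deviations from the group means, and differently numbered ones at -0.079 to 0.040. With 3 libraries per group this cannot exclude a pairing. The block changed no call of a receptor. Among the pathway genes it ended the call of Pik3cd, while 7 positive relays were called lower against 6. The total stayed at 17. Cd5, near 0 with all libraries, changed sign to a log2 fold change of 0.0053 with DESeq2 and with RLE factors, 0.015 with total counts, 0.011 among genes at a mean of 5 CPM or more, and ran from -0.10 to 0.058 with 1 library left out, above 0 without control library 2 or 3 and without cKO library 2 or 3. Cd6 ran from -0.013 (without control library 1) to 0.14. Depth limits Btla, which had at most 22 counts, and no alternative that tested them gave it or Pdcd1 an adjusted p below 0.05.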

Other observations

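The deposited counts and FPKM of a gene are tied by a length, which can be read back by dividing the count, scaled to library size, by the FPKM. If FPKM had been made with 1 fixed length per gene, this length would be the same in every library. That was so for Cd28 (4347 nt), Cd96 (2184 nt) and Pdcd1 (1935 nt in control) but not for the other receptors. For Cd6 it was 2715, 2756 and 2730 nt in control libraries 1, 2 and 3 and 2560, 2441 and 2400 nt in the libraries labelled cKO 1, 2 and 3, so that the groups did not overlap (as for 16.6% of all genes compared) and the means had a ratio of 0.902. As a result Cd6 FPKM did not overlap between the groups, while its CPM did. For Vsir it was 3450, 3050 and 3255 nt in control and 3748, 3511 and 3519 nt in the libraries labelled cKO, a ratio of 1.105 with no overlap. For Cd226 it was 1689, 1497 and 1599 nt in control and 2089, 1004 and 963 nt in the libraries labelled cKO, so that cKO library 1, with the most Cd226 counts of its group, had the longest value and the others the shortest (highest over lowest 2.17). Its FPKM were therefore nearly level, at 1.96, 1.68 and 1.77, where its counts were 89, 32 and 37.

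GENCODE lists 6 transcripts of 629 to 4683 nt for Cd6, 7 of 371 to 4846 nt for Vsir and 10 of 408 to 4494 nt for Cd226, but 1 for Cd96 and 1 for Pdcd1. Whether the moving lengths reflect which transcripts the reads were assigned to was not tested, since the table holds no values per transcript. Among 9289 genes with at least 20 counts and 1 FPKM in every library, the median coefficient of variation of this length over the 6 libraries was 1.51%, and the lengths of 3.03% of genes both lay apart between the groups and had means of which the larger exceeded the smaller by more than 10%, as those of Cd6 and Vsir did. This comparison was chosen after the data were seen.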
